A study of Mus musculus with 2 samples.

Results

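The genes described here are 10 components of fibroblast growth factor (FGF) signaling, taken by name from the 18131 genes measured. They are the ligands Fgf3, Fgf8 and Fgf10, the receptors Fgfr1, Fgfr2 and Fgfr3, and the feedback genes Spry1, Spry2, Spry4 and Dusp6. All 10 had UMIs (unique molecular identifiers, each counting 1 captured RNA molecule) in both libraries. The study performed single-cell RNA-Seq on the cardiac neural crest region of C57BL/6 mouse embryos at E9.5, dissected between the otic placode and the fourth somite, to ask how loss of Prdm6 in the neural crest affected its cells. There was 1 library of Prdm6+/+ Wnt1-Cre2 ZsGreen1 embryos (WT) and 1 of Prdm6f/f Wnt1-Cre2 ZsGreen1 littermates (KO). Both groups carried the Cre driver and the ZsGreen1 reporter, and Wnt1-Cre2 recombines in the Wnt1 lineage, which is mainly neural crest. The cells were not sorted, so most classes below lie outside the lineage in which Prdm6 was deleted.

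FGF ligands are secreted proteins that bind receptor tyrosine kinases together with heparan sulfate and activate the MAP kinase cascade. In the embryonic pharynx and hindbrain, FGFs from the ectoderm, endoderm, heart field and rhombomeres pattern the otic placode, support survival of neural crest cells and maintain cardiac progenitors. The pathway switches on its own inhibitors, the Sprouty proteins and the ERK phosphatase DUSP6, whose transcripts are therefore widely used as a readout of FGF and other receptor tyrosine kinase activity.

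The WT library held 11958 cells with 20781384 UMIs (median 1597 per cell), and the KO library held 9765 cells with 18936857 UMIs (median 1703). The libraries shared 26 cell barcodes. Globin UMIs were found in cells of every class, with a library median of 8 per cell in WT and 4 in KO, which measures free RNA in the droplets. Prdm6 itself had 104 UMIs in WT and 59 in KO over all cells, or 5.00 and 3.12 CPM (UMIs per 1e+06 UMIs of the cells summed). Its reads come from the 3′ end of the transcript and from undeleted cells too, so this level does not check the deletion. Cells were assigned to 19 classes by UMIs of marker genes, namely 18 separate classes and a pool of neural progenitors that contains the dorsal, intermediate and ventral neural tube cells. The gates took 4314 WT cells (36.1%) and 3201 KO cells (32.8%), while 57.7% of WT and 62.1% of KO cells met no gate and the rest met 2 or more. Of 72 marker and class pairs that were not used for gating, 59 in WT and 57 in KO had at least 3 UMIs and at least 2 times the level of all cells. The exceptions included Pax9 and Tbx18 in the sclerotome and somite gate, Hand2 in the arch mesenchymal neural crest (NCC) gate, and Prdm12 and Irx5 in the intermediate neural tube gate.

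Levels are given in CPM of the class or library, with exact 95% Poisson intervals. Ratios are log2 of KO over WT with exact conditional 95% intervals. Both cover counting error only and treat each UMI as an independent draw. They leave out variation between cells, and with 1 library per genotype there was no replicate to show variation between libraries. No p-values were computed, and a gene was called different between the libraries when it was past 1.5-fold in either direction. A stricter gate, where named, demanded 1 more marker UMI per cell, and the alternatives for a class were this gate, gating on thinned cells, the mean over cells of normalised counts, and leaving out the 5% of cells with most UMIs.

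Among the ligands, Fgf3 was highest in neural cells in WT. Fgf3 is a hindbrain and pharyngeal signal that helps to induce the otic placode. In the WT library it was highest in intermediate neural tube cells, at 49.9 CPM (28.0 to 82.4, 15 UMIs), against 2.80 in erythroid cells, which should lack the gene and served as the free-RNA background. Of the 18 separate classes, no other had an interval above the erythroid one in WT. In the KO library the highest level was in the otic and epibranchial placode, at 36.2 (17.4 to 66.6, 10 UMIs), where WT had 7.08 (0.857 to 25.6, 2 UMIs). The intermediate neural tube had 20.3 (8.16 to 41.8, 7 UMIs) in KO, so the order of the classes was not the same in the libraries, although 5 other WT intervals and 9 other KO intervals overlapped that of the highest class.

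Of the member and class pairs with at least 50 UMIs, the largest ratio between the libraries was that of Fgf3 in neural progenitors. The 989 WT cells of this pool had 45 Fgf3 UMIs, or 27.2 CPM (19.8 to 36.3), and the 882 KO cells had 12, or 7.31 (3.78 to 12.8). The intervals did not overlap, and the log2 ratio was -1.89 (-2.95 to -0.95). In this pool 7.1% of the 7664 genes with at least 50 UMIs in the class were past 1.5-fold. The ratio stayed between -2.60 and -1.66 over the 4 alternatives. Over all cells the ligand had nearly the same level in the libraries, 7.12 (6.02 to 8.37) in WT and 6.81 (5.69 to 8.09) in KO. Cells outside every gate held 72 of the 148 Fgf3 UMIs in WT and 79 of 129 in KO, and they were not part of the comparison within neural progenitors.

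Fgf10 was most abundant in the otic and epibranchial placode and in pharyngeal mesoderm. Fgf10 is the ligand of the SHF (heart field progenitors of the outflow tract) and also signals in otic development. The placode had 46.0 CPM (24.5 to 78.7) in WT and 29.0 (12.5 to 57.1) in KO, and the pharyngeal mesoderm and SHF gate had 33.1 (12.1 to 72.1) and 22.2 (7.20 to 51.8). The intervals of the libraries overlapped in both classes, and counts of 5 to 13 UMIs could not show a difference. In WT these were the only separate classes with intervals above that of erythroid cells, at 1.86. In KO the placode and surface ectoderm, at 21.3 (8.56 to 43.9), were above it. Gating on thinned cells lowered the WT placode level to 18.8, and dermomyotome then led. Over all cells Fgf10 was at 8.32 (7.13 to 9.66) in WT and 8.61 (7.34 to 10.0) in KO.

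Fgf8 was sparse and lower in the KO library. Fgf8 comes from pharyngeal epithelia and early heart progenitors and is required for survival of neural crest in the arches. It had 145 UMIs in WT and 87 in KO, or 6.98 (5.89 to 8.21) and 4.59 (3.68 to 5.67) CPM, so the intervals did not overlap. The log2 ratio was -0.60 (-1.0 to -0.21), just past 1.5-fold, and 2.39% of the 10513 genes with at least 200 UMIs were past that fold. Fgf8 was below 1.5-fold after rescaling by a trimmed mean of log ratios (-0.54) or by the median of ratios (-0.54). It was also below it with the mean over cells of normalised counts and without the 5% of cells with most UMIs. Over all alternatives its ratio ranged from -0.68 to -0.50. In sums over all cells, fewer cells with a transcript and less transcript per cell cannot be told apart. No class had an Fgf8 interval above the erythroid one in either library. The widest gaps in counts were in cardiac muscle, with 15 UMIs in WT and 2 in KO, and in pharyngeal endoderm, with 9 and 1. The intervals of the other 17 classes overlapped that of the highest class in each library, so Fgf8 showed no order of classes at this depth.

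**Figure D1:**
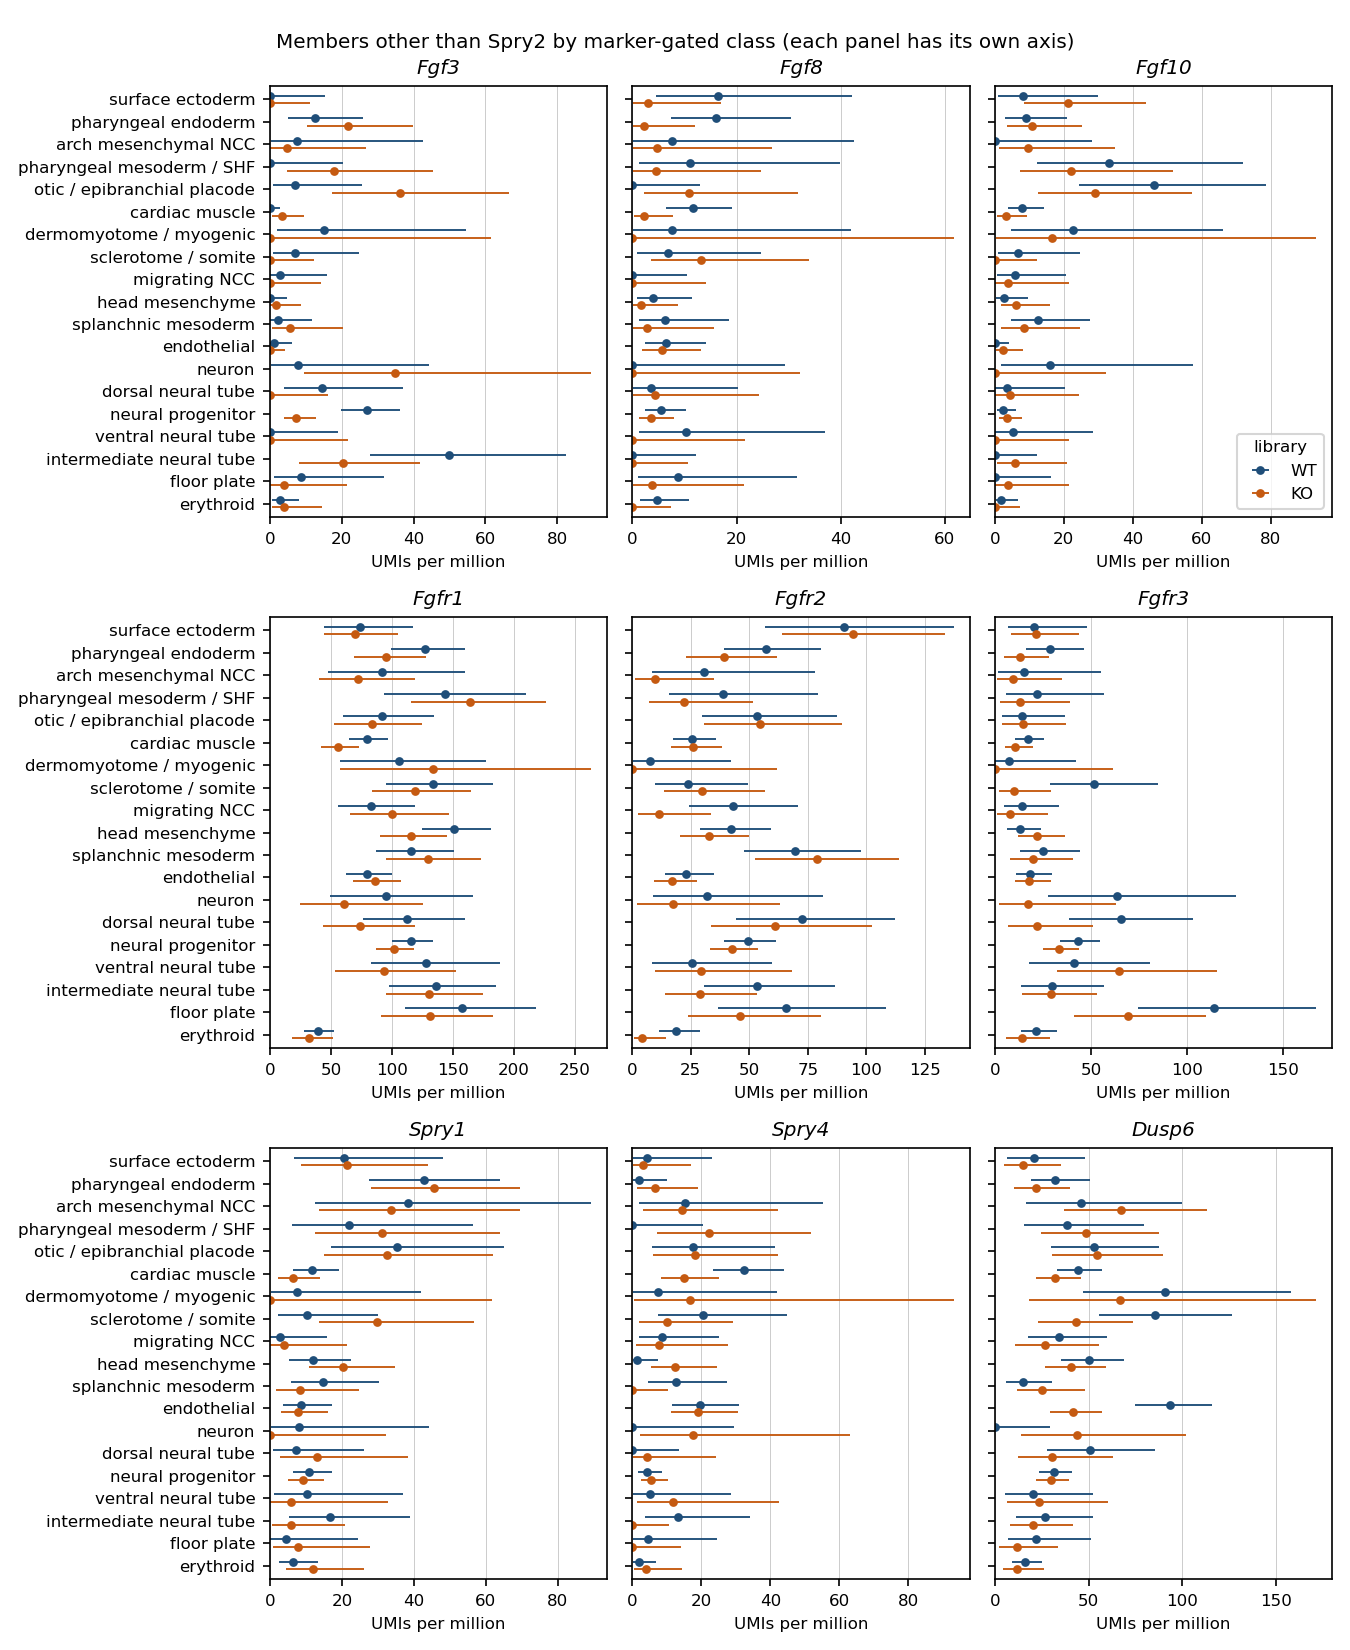
CPM (UMIs per 1e+06 UMIs) for 9 members in each marker-gated class, WT in blue and KO in orange, with exact 95% Poisson intervals. The highest WT levels were in intermediate neural tube for Fgf3 (49.9) and floor plate for Fgfr3 (114). For Spry4 the highest was cardiac muscle (32.5) and for Dusp6 endothelial cells (93.6). Each of these was overlapped by 4 to 11 other classes. Fgfr1 was above the erythroid interval in 14 WT classes.

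The 3 receptors differed in how many classes lay above the erythroid interval. For Fgfr1 there were 14 in WT and 12 in KO, for Fgfr2 8 in each library and for Fgfr3 2 in each. Each of the 3 had UMIs in all 18 WT classes. Fgfr1 is the main receptor of mesenchyme and neural progenitors. Its WT levels ran from 39.2 (28.2 to 52.9) in erythroid cells to 158 (111 to 218) in floor plate. Head mesenchyme (151), pharyngeal mesoderm and SHF (143) and intermediate neural tube (137) followed, and 14 other classes overlapped the floor plate interval. Adjacent classes in this order never separated.

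Fgfr2, whose epithelial splice form receives mesenchymal ligands such as FGF10, was highest in surface ectoderm, at 90.7 (56.8 to 137) in WT and 94.3 (64.1 to 134) in KO. Dorsal neural tube (72.6 in WT and 61.1 in KO) and splanchnic mesoderm (69.6 and 79.0) came next. Cardiac muscle had 25.5 in WT and 25.7 in KO, and endothelial cells had 22.9 and 16.8. The erythroid background was 18.6 (11.4 to 28.8, 20 UMIs) in WT and 3.99 (0.484 to 14.4, 2 UMIs) in KO. Of these 2 classes, only cardiac muscle in KO had an interval above it. In WT, 12 other classes overlapped the surface ectoderm interval. A stricter surface ectoderm gate lowered the WT level there to 51.5, so the place of this class rests on cells near the gate. In migrating NCC, Fgfr2 had 15 UMIs in WT and 3 in KO, which is below the 50 UMIs needed for a call. The GENCODE model of Fgfr2 overlaps 69 other genes, and how reads in the overlaps were assigned is not given in the sources used here.

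Fgfr3, a receptor of ventral midline and other neural progenitors, peaked in floor plate, at 114 (74.4 to 167) in WT and 69.3 (41.1 to 109.6) in KO. With gates on thinned cells the WT floor plate level was 64.3 and ventral neural tube led. Dorsal neural tube had 65.3 (38.7 to 103) in WT and 21.8 (7.09 to 50.9) in KO. In the neural progenitor pool the level was 43.5 (34.0 to 54.7) in WT and 33.5 (25.2 to 43.6) in KO, and the log2 ratio of -0.38 (-0.91 to 0.15) included 0. Endothelial, cardiac, placode and neural crest classes were at 14.2 to 18.5 in WT, within the range of the erythroid background of 21.4 (13.6 to 32.2).

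None of the 19 receptor and class pairs with at least 50 UMIs was past 1.5-fold, in classes where 7.1% to 12.3% of all genes were. Under 1 alternative each, 6 of these pairs passed it. A stricter gate gave 1.44 for Fgfr2 in surface ectoderm and 1.06 for Fgfr1 in intermediate neural tube. Gating on thinned cells gave -0.82 for Fgfr2 and -0.76 for Fgfr1 in pharyngeal endoderm and 0.67 for Fgfr1 in splanchnic mesoderm, and the mean over cells gave -0.64 for Fgfr1 in cardiac muscle. For Fgfr1, 8 of 12 classes were lower and 4 higher in KO, with log2 ratios from -0.51 to 0.27. Cardiac muscle was the single Fgfr1 pair whose interval left out 0, at 79.6 (65.0 to 96.6) in WT and 55.8 (41.7 to 73.2) in KO, with a log2 ratio of -0.51 (-1.02 to -0.02). Over all cells the log2 ratios were -0.09 (-0.18 to 0.01) for Fgfr1, -0.22 (-0.37 to -0.07) for Fgfr2 and -0.24 (-0.42 to -0.07) for Fgfr3, where the median of all genes tested was -0.06.

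Spry2, an intracellular inhibitor of receptor tyrosine kinase signaling, had the most UMIs of the 10 genes, 11153 in WT and 7746 in KO. It was detected in 38.1% of WT and 34.4% of KO cells, against 12.8% and 12.0% of erythroid cells, whose median depths were 1994 and 2442.5 UMIs. With every cell thinned to 1000 UMIs, and without the 1361 cells of WT and 125 of KO that were shallower, the shares were 29.7% and 23.4%, against 8.61% and 5.53% of erythroid cells. A single cell held up to 26 Spry2 UMIs in WT and 23 in KO.

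The Spry2 level varied 13.6-fold between classes in WT and 13.8-fold in KO. In WT it ran from 91.4 CPM (74.2 to 111) in erythroid cells to 1241 (1105 to 1389) in surface ectoderm. Pharyngeal endoderm, arch mesenchymal NCC, pharyngeal mesoderm and SHF, otic and epibranchial placode and cardiac muscle followed, all between 1008 and 1120.3, and the first 4 of these overlapped surface ectoderm. Somite derivatives were intermediate, with 791 in dermomyotome and 750.0 in sclerotome. Migrating NCC had 638 (557 to 728) and thus less than NCC in the arches, at 1086 (914 to 1279.7), with no overlap of the intervals. Neural classes were low, from 197 (144 to 264) in floor plate to 349.7 (254 to 469) in neurons. All 17 other classes lay above the erythroid interval in WT and 15 did so in KO, and the WT and KO profiles over the 18 classes had a Pearson correlation of 0.96 on log2 levels, given as a description since classes of a library share depth and free RNA.

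**Figure D2:**
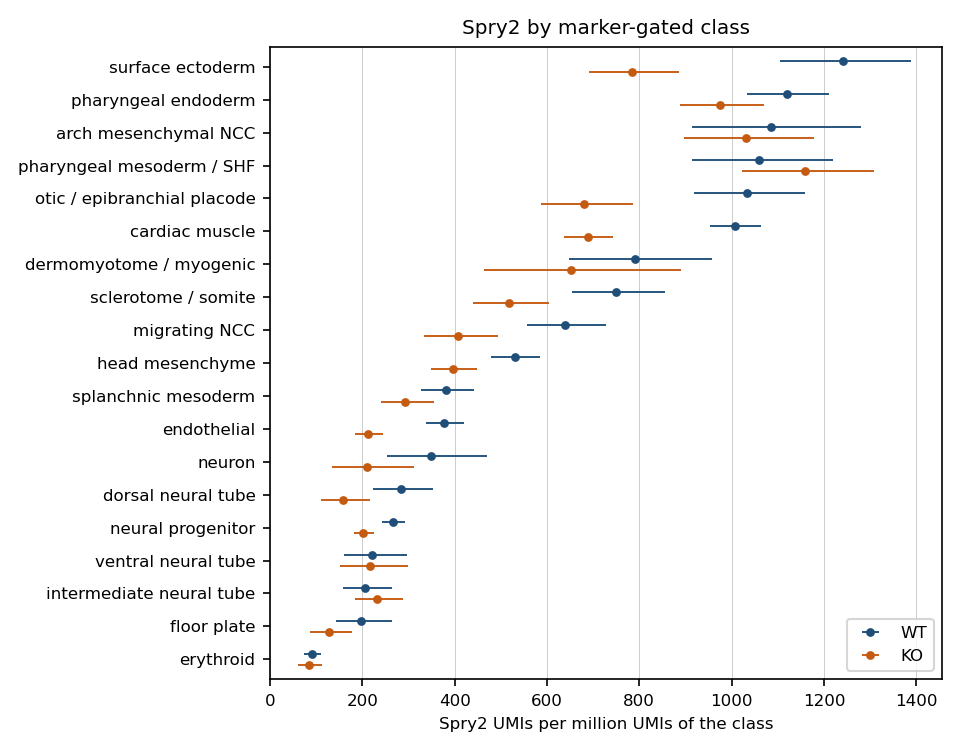
Spry2 CPM in each marker-gated class, WT in blue and KO in orange, with exact 95% Poisson intervals, ordered by the WT level. Epithelia, arch NCC, pharyngeal mesoderm and cardiac muscle were near or above 1000 in WT and neural classes at or below 349.7, with KO below WT in endothelial cells (213 against 378) and cardiac muscle (689 against 1008).

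Spry2 was lower in the KO library over all cells, at 537 (527 to 547) in WT and 409 (400.0 to 418) in KO, with a log2 ratio of -0.39 (-0.43 to -0.35). This was 1.31-fold and so not past 1.5-fold, and 6.59% of the genes tested had a lower ratio. The ratio was -0.41 when the KO level was rebuilt with the WT mix of classes, an alternative added after the data were seen. Cells outside every gate entered this rebuild as 1 group, which held 4943 of the 11153 Spry2 UMIs in WT. The mix of cell types within that group was not adjusted. Over all alternatives the Spry2 ratio ranged from -0.46 to -0.33. Spry2 reached 50 UMIs in all 19 classes, where it was lower in KO in 17 and higher in 2, with 11 intervals below 0 and none above. It was past 1.5-fold in 7 classes, all lower.

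Endothelial cells showed one of the 2 largest Spry2 differences, from 378 (339 to 419.6) in WT to 213 (184 to 245) in KO, a log2 ratio of -0.83 (-1.09 to -0.57) in a class where 7.98% of genes tested were past 1.5-fold. The other was in dorsal neural tube, from which neural crest delaminates, with 283 (224 to 353) and 157 (110.1 to 218) and a ratio of -0.85 (-1.46 to -0.26), against 12.7% of genes. The endothelial ratio stayed past 1.5-fold under every alternative, from -1.14 to -0.77, whereas the dorsal neural tube ratio ranged from -0.67 to -0.10 over the alternatives and was below 1.5-fold in 3 of 4.

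In migrating NCC, the lineage in which Prdm6 was deleted, Spry2 was at 638 in WT and 408 (334 to 494) in KO, a ratio of -0.65 (-0.99 to -0.31) where 11.5% of genes were past 1.5-fold. This ratio ranged from -1.06 to -0.72 over the alternatives. Arch mesenchymal NCC, which descend from the same lineage, had 1086 in WT and 1031 (897 to 1178) in KO, a ratio of -0.08 (-0.39 to 0.24) against 12.1% of genes, and -0.72 under a stricter gate. The difference between these ratios was not tested.

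The remaining Spry2 calls were in epithelia and neural cells. The otic and epibranchial placode had 1034 (918 to 1159) in WT and 681 (587 to 786) in KO, a ratio of -0.60 (-0.87 to -0.33) against 11% of genes, and the ratio was -0.33 with a stricter gate. Surface ectoderm had 1241 and 785 (692 to 886), a ratio of -0.66 (-0.91 to -0.42) against 11.4% of genes. With 1 more marker UMI demanded that ratio was 0.02, so the call was lost without cells at the gate's minimum. Neurons were at -0.74 (-1.52 to 0.01) against 14.1% of genes and floor plate at -0.63 (-1.33 to 0.05) against 11.8%, and both intervals included 0. With a stricter gate they were at -0.40 and -0.29.

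Classes below the fold threshold included the best measured one. Cardiac muscle had 1304 Spry2 UMIs in WT and 642 in KO, or 1008 (954 to 1064) and 689 (636 to 744), a ratio of -0.55 (-0.69 to -0.41) where 9.62% of genes were past 1.5-fold. Sclerotome and somite cells were at -0.54 (-0.84 to -0.23) with 10.6% of genes past the threshold, head mesenchyme at -0.42 (-0.65 to -0.19) with 8%, the neural progenitor pool at -0.40 (-0.61 to -0.19), and splanchnic mesoderm at -0.38 (-0.74 to -0.02) with 9.41%. Pharyngeal endoderm was at -0.20 (-0.38 to -0.02), with 11.7% of genes past the threshold. Gating on thinned cells gave ratios of -0.08 in head mesenchyme, 0.14 in splanchnic mesoderm and -0.01 in pharyngeal endoderm. None of these 3 differences held under that alternative. Without the 5% of cells with most UMIs, pharyngeal endoderm was at 0.01. Other alternatives took classes past 1.5-fold, namely cardiac muscle at -0.59 with thinned cells and -0.60 without the deepest cells, sclerotome at -0.63 and the neural progenitor pool at -0.62 with a stricter gate.

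In 6 further classes Spry2 was below 1.5-fold and its interval included 0. Dermomyotome was at -0.28 (-0.85 to 0.26), with 17.7% of genes past 1.5-fold, erythroid cells at -0.12 (-0.68 to 0.41), with 11.3%, and ventral neural tube at -0.02 (-0.70 to 0.65), with 13%, or -0.83 with a stricter gate. Pharyngeal mesoderm and SHF had 0.13 (-0.15 to 0.41), with 12.3% of genes past the threshold, but 0.50 with a stricter gate and -0.54 after thinning. Intermediate neural tube had 0.17 (-0.33 to 0.67), with 9.97%, but -0.86 with a stricter gate. The sixth was arch mesenchymal NCC.

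**Figure D3:**
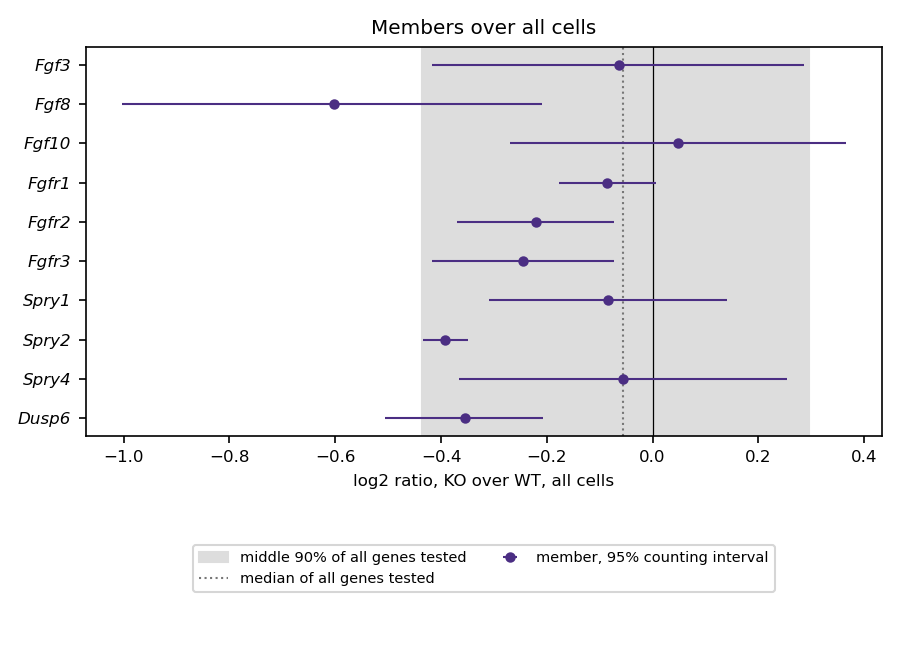
Log2 ratio of KO over WT for the 10 members over all cells, with exact conditional 95% intervals. The gray band holds the middle 90% of the 10513 genes tested, from -0.44 to 0.30, and the dotted line is their median of -0.06. Fgf8 (-0.60) lies outside the band, and Spry2 (-0.39) and Dusp6 (-0.36) lie near its lower edge.

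Dusp6, the cytoplasmic phosphatase that inactivates ERK, was also lower in KO over all cells, at 42.6 (39.9 to 45.5) in WT and 33.3 (30.8 to 36.0) in KO. The log2 ratio was -0.36 (-0.51 to -0.21), and 8.48% of genes tested had a lower one. Endothelial cells had the highest WT level, 93.6 (74.9 to 116), and 41.5 (29.2 to 57.2) in KO. The intervals did not overlap, and the log2 ratio of -1.17 (-1.77 to -0.60) ranged from -1.40 to -0.76 over the alternatives. Dermomyotome (90.4 in WT) and sclerotome and somite cells (85.6) were next, both overlapping endothelial cells, and the erythroid background was 15.8 (9.23 to 25.4). Cardiac muscle had 44.1 (33.4 to 57.1) in WT and 32.2 (21.7 to 45.9) in KO, and neural progenitors had 31.4 and 29.8, although a stricter gate put their log2 ratio at 0.61.

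Spry4, a Sprouty paralog with roles in vessels and heart, was most abundant in cardiac muscle in WT, whereas in KO 5 classes were above it and all overlapped. In cardiac muscle it had 42 UMIs in WT and 14 in KO, or 32.5 (23.4 to 43.9) and 15.0 (8.21 to 25.2) CPM, with a log2 ratio of -1.11 (-2.10 to -0.21) and a range of -1.26 to -1.12 over the alternatives. In endothelial cells the libraries were level, at 19.6 (11.6 to 31.0) and 19.1 (11.1 to 30.5). Head mesenchyme had 1 UMI in WT and 8 in KO, a log2 ratio of 3.25 (0.35 to 8.72) on too few UMIs for a call. Over all cells Spry4 was at 9.0 (7.75 to 10.4) in WT and 8.66 (7.39 to 10.1) in KO.

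Spry1, a Sprouty paralog required in kidney development, was highest in pharyngeal endoderm, with 42.9 (27.5 to 63.8) in WT and 45.5 (28.2 to 69.6) in KO. Arch mesenchymal NCC (38.2 in WT and 33.7 in KO, on 5 and 7 UMIs) and the placode (35.4 and 32.6) followed. The erythroid background was 6.53 in WT and 12.0 in KO. Only pharyngeal endoderm and the placode had intervals above the erythroid one in WT, and only pharyngeal endoderm did in KO. The arch mesenchymal NCC interval overlapped the erythroid one in both libraries. Migrating NCC had 1 Spry1 UMI in each library, or 2.86 (0.0725 to 15.9) and 3.85 (0.0975 to 21.5). No class reached 50 Spry1 UMIs, and over all cells the log2 ratio was -0.08 (-0.31 to 0.14).

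Over the 10 members, 44 member and class pairs had at least 50 UMIs, of which 10 were past 1.5-fold, all lower in KO. Of the 10 member pairs, 7 belonged to Spry2 and 1 each to Fgf3, Spry4 and Dusp6. Over all genes, 10.1% of 61197 such pairs were past 1.5-fold, 5.87% lower and 4.22% higher in KO. Neural progenitors and the neural tube classes within them share cells, and pairs of a single gene share both libraries. Over all cells 9 members were lower and 1 was higher in KO, 1 was past 1.5-fold, and 5 intervals lay below 0. Of the 10513 genes tested, 60.8% were lower in KO, 2.39% were past 1.5-fold, and 29.1% had intervals below 0. The median ratio of the members was -0.15, where the median over all genes tested was -0.06.

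The promoters of Spry2 and Dusp6, both lower in KO over all cells and in endothelial cells, are shown because ETS transcription factors such as ETV4 and ETV5 are known effectors of FGF signaling at its target genes. The windows are the 250 bases before the RefSeq start site in GRCm38.p6, on the minus strand at chr14:105896820-105897069 for Spry2 and on the plus strand at chr10:99262981-99263230 for Dusp6. Capitals mark GGAA, the core letters of ETS sites, or its reverse complement TTCC.
Spry2: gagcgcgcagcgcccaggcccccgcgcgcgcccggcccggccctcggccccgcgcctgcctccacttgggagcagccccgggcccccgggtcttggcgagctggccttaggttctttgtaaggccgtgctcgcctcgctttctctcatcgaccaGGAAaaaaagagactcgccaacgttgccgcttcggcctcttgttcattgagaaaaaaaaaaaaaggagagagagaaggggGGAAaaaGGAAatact
Dusp6: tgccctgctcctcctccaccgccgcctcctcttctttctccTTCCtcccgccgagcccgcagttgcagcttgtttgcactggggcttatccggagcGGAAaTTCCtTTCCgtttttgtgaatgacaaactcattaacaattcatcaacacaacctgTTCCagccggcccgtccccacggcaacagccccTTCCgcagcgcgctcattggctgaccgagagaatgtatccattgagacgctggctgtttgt
The Spry2 window holds 3 matches and the Dusp6 window 6. Of 32851 RefSeq promoter windows of this length, 93.4% hold at least 1 match, the median is 3, and 8.69% hold 6 or more. These letters are common and the matches are a description of the windows, not binding sites.

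In GRCm38, with GENCODE vM21 models, the Fgf3 gene lies at chr7:144838083-144844436, Fgf8 at chr19:45736798-45742915, Fgf10 at chr13:118669791-118792115, Fgfr1 at chr8:25513654-25575718, Fgfr2 at chr7:130162451-133123350 and Fgfr3 at chr5:33721674-33737068. Spry1 lies at chr3:37639947-37644598, Spry2 at chr14:105891947-105896819 and Dusp6 at chr10:99263231-99267489. UMIs were counted per gene, so exons and splice forms were not resolved.

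Cells with a ligand UMI held more Spry2 and Etv5 than cells with none. At least 1 Fgf3 UMI was found in 130 WT and 101 KO cells, Fgf8 in 135 and 83, and Fgf10 in 164 and 152. In WT these were 1.09%, 1.13% and 1.37% of cells, against 0.581%, 0.969% and 0.194% of erythroid cells, the deeper class. The Fgf8 share in WT was thus close to the free-RNA background. In KO the shares were 1.03%, 0.850% and 1.56%, against 0.500%, 0 and 0 of 200 erythroid cells, where a count of 0 allows up to 1.50%. With cells thinned to 1000 UMIs, the Fgf3 share in KO was 0.633% against 0.503% of erythroid cells. A cell is called positive here for having at least 1 UMI of a ligand, which is not read as expression for any of the 3. Most held a single ligand UMI, as in 127 of the 135 Fgf8 cells in WT, and 49.6% to 63.9% met no gate. Their median depths of 1842 to 2416 UMIs were above those of the libraries, so levels were compared as CPM.

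Spry2 was higher in cells with a UMI of any of the 3 ligands, in both libraries. In cells with Fgf10 it was at 699 (612 to 795) in WT, against 534 in the other cells, a log2 ratio of 0.39 (0.19 to 0.58), and at 783 (695 to 879) in KO, against 402, a ratio of 0.96 (0.79 to 1.13). In cells with Fgf3 the ratios were 0.82 (0.63 to 1.00) and 1.04 (0.82 to 1.24). In cells with an Fgf8 UMI they were 1.24 (1.08 to 1.39) and 0.84 (0.59 to 1.09). Spry2 also differs between classes, and cells with and without a ligand UMI were not compared within classes, so the part of the class mix in these ratios was not tested. Etv5, the ETS factor induced by FGF, was also higher in all 6 comparisons, with log2 ratios of 0.83 to 1.54 and intervals above 0.

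Of the other feedback members, Spry1 was higher in cells with Fgf3. They had 38.3 CPM of Spry1 (18.4 to 70.5) in WT against 16.9 in other cells, and 77.6 (46.0 to 123) in KO against 15.5, with log2 ratios of 1.18 (0.11 to 2.08) and 2.33 (1.55 to 3.01). For Fgf8 and Fgf10 the Spry1 intervals included 0 in both libraries. Dusp6 intervals lay above 0 only in KO, at 1.07 (0.25 to 1.78) with Fgf3 and 1.20 (0.32 to 1.96) with Fgf8, and all 6 Spry4 intervals included 0. Of the receptor intervals, those above 0 were in Fgf10-positive KO cells, at 0.75 (0.35 to 1.13) for Fgfr1 and 0.87 (0.20 to 1.47) for Fgfr2. The Fgfr3 ratios ran from -1.61 to 0.05, and all 6 intervals included 0.

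Marker genes of several tissues were higher in these cells, and those named were chosen after their values were seen. Cells with an Fgf8 UMI held more of the epithelial gene Epcam (164 CPM in WT against 63.3 elsewhere), of Pax1, which is expressed in pharyngeal pouches and sclerotome, and of Tbx1. The keratins of surface epithelia did not follow Epcam in WT, with Krt8 at 74.7 against 81.0 and Krt18 at 67.6 against 85.2. In KO, Krt8 was at 70.1 against 64.2 and Krt18 at 64.7 against 68.7. Fgf10-positive cells had more Pax2 (66.0 against 9.44 in WT and 38.5 against 8.24 in KO), Lmx1a and Epcam, which are expressed in the otic vesicle, and also more Sox10 and Erbb3, which neural crest expresses too. Other neural crest genes were not higher in both libraries, with Pax3 at 45.0 against 61.4 in WT and 46.7 against 56.4 in KO, and Tfap2b at 36.0 against 32.6 in WT and 13.7 against 37.9 in KO. Fgf3-positive cells had more Sox2, Pax6 and Pax1, but less of the neural gene Nkx6-1, at 38.3 against 48.0 in WT and 34.5 against 55.9 in KO. These genes come from the lists used to gate and check classes, and cells within a library are not replicates.

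**Figure D4:**
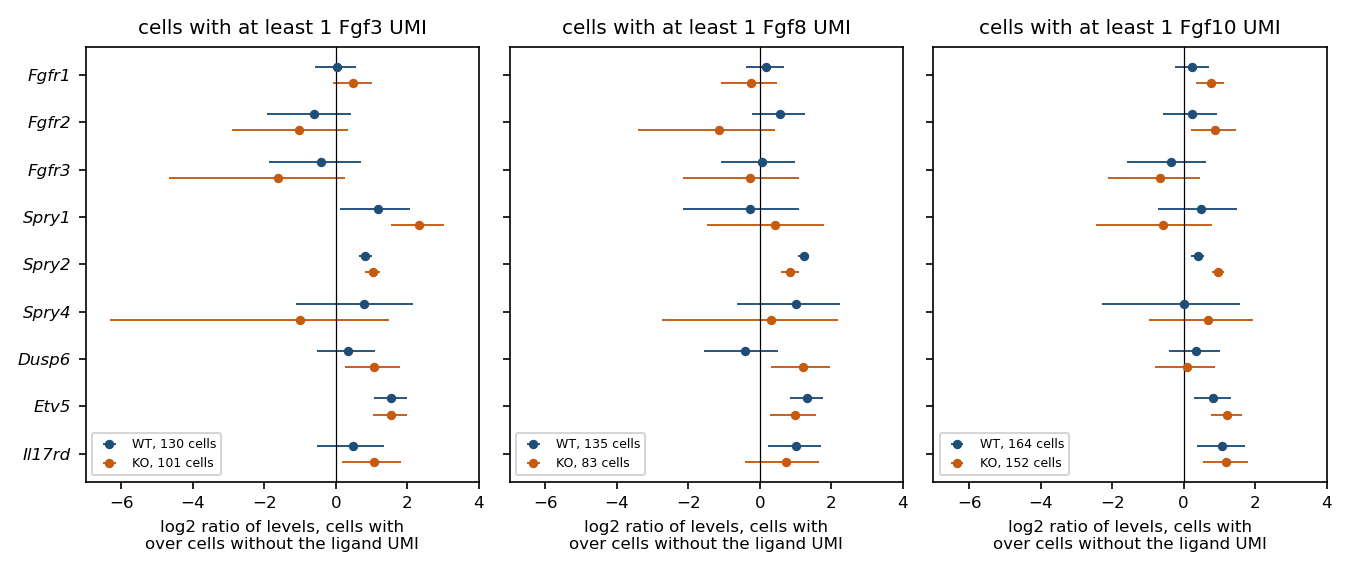
Log2 ratio of levels in cells with at least 1 UMI of Fgf3, Fgf8 or Fgf10 over cells with none, WT in blue and KO in orange, with exact conditional 95% intervals. Spry2 and Etv5 lie above 0 in all 6 comparisons, while Fgfr1 does so only in Fgf10-positive KO cells (0.75), and Spry1 only in Fgf3-positive cells.

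The rest of the pathway had a median ratio near 0. Of 45 other FGF pathway genes, 43 had a column in the files and 23 reached 200 UMIs. Of these, 13 were lower and 10 higher in KO, 7 intervals lay below 0 and 1 above it, and the median log2 ratio was -0.04. Over all genes tested, 60.8% were lower, 29.1% had intervals below 0 and 16.9% above it. Fgf9, a ligand made by epithelia and endocardium, was the only one past 1.5-fold, and barely so, at 6.50 (5.45 to 7.69) in WT and 4.33 (3.44 to 5.37) in KO, with a log2 ratio of -0.59 (-1.0 to -0.18). Rescaling by a trimmed mean of log ratios put it at -0.53, below the threshold. The interval above 0 was that of Sos1, a Ras exchange factor, at 0.22 (0.10 to 0.34).

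Several other targets and inhibitors of the pathway had ratios near 0 over all cells. Etv5 had a log2 ratio of 0.07 (-0.05 to 0.19) over all cells, Spred1 0.02 (-0.07 to 0.11), Il17rd -0.04 (-0.21 to 0.13) and Etv4 -0.16 (-0.52 to 0.21). The decoy receptor gene Fgfrl1 was at -0.37 (-0.54 to -0.21). By class, Etv5 was highest in the otic and epibranchial placode, at 255 in WT and 265 in KO, followed by arch mesenchymal NCC with 122 and 130.0 and pharyngeal endoderm with 104 and 130.0. In cardiac muscle Etv5 had a ratio of -0.27 (-0.73 to 0.17), and in endothelial cells -0.03 (-0.72 to 0.65). Spred1, which blocks Ras activation, had 135 in WT and 77.0 in KO in migrating NCC, a ratio of -0.80 (-1.64 to -0.02), where Etv5 had 57.3 and 84.7. In pharyngeal mesoderm and SHF Spred1 was past 1.5-fold in the other direction, with 110.3 in WT and 186 in KO and a ratio of 0.76 (-0.04 to 1.60). Fgf15, a hindbrain ligand, had 20 UMIs in WT and 27 in KO in neural progenitors, where Fgf3 had 45 and 12.

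The genes whose profiles over 36 class and library points were most like those of each member were found among 10513 genes. Etv5 (Pearson r = 0.77) and Arid3b (0.75) were closest to Spry2, Pbx2 (0.86) and Gpc6 (0.80) to Fgfr1, and Clec2l (0.79) and Tox2 (0.78) to Fgfr3. Dap and Atp2c1 were closest to Fgfr2 (both 0.74), Prdm1 (0.73) and Six4 (0.71) to Fgf10, Kif26a and Tdrd3 to Dusp6 (both 0.69), and Wee1 (0.68) and Stk26 (0.66) to Spry1. The likeness was weaker for Fgf3 (Cpm, 0.61, and Myo5b, 0.59), Fgf8 (Exoc4, 0.62, and Sec11a, 0.59) and Spry4 (Svil, 0.60, and Map2k1, 0.58), whose counts per class were low. Among the members, the WT profile of Spry2 had a correlation of 0.59 with Spry1, 0.39 with Dusp6, 0.26 with Spry4 and -0.47 with Fgfr3 over 18 classes, and these values carry no p since the points share their libraries.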

How the data were processed

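Single-cell RNA-Seq was performed by the authors on the 10x 3′ platform with MULTI-Seq demultiplexing. Per their methods, they ran Cell Ranger (1.3.1) and Scanpy, removed cells with under 200 or over 6000 UMIs, genes in under 3 cells, mitochondrial and ribosomal UMIs, and DoubletFinder doublets. The methods name a human genome, and the labels name mm10. The deposited values are a score, which the authors made by scaling each cell to a common total and taking the square root. Values were squared and divided by the smallest nonzero square of each cell, and 100% were whole within 0.01, so UMIs were recovered.

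For the classes, only cells in 1 gate were used. The gates demanded a minimum of 1 to 50 UMIs of marker genes, and these minimums were set on marker genes after the files were seen. UMIs were summed per class and library (Python 3.11.15, numpy 2.4.6, scipy 1.17.1). A gene was compared with 200 UMIs over all cells or 50 in a class. Profiles used log2 of the level plus 10. The functions were tested on simulated data. With 1 library per genotype there was no test across samples. The members, lists and tests were chosen with earlier results of these data known. Named genes were the members, pathway genes past 1.5-fold, 6 further pathway genes by class, and the 2 most alike genes per member. Ligand-cell markers were chosen after their values were seen.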

Additional observations from a re-analysis of the deposited data

How the results depend on the processing

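Alternatives moved counts near the 1.5-fold threshold. Over all cells, 0 members in place of 1 were past it under the trimmed mean of log ratios, the median of ratios, the mean over cells of normalised counts, or without the 5% of cells with most UMIs. Of the other pathway genes, 0 in place of 1 were past it under the trimmed mean and the median of ratios. With at least 20 UMIs in place of 50, 25 of 76 member and class pairs were past 1.5-fold, 23 lower and 2 higher in KO, where 19.2% of all gene and class pairs were. The class with the highest WT level stayed the same for 4 of 10 members with 1 more marker UMI and for 5 with gates after thinning to 1000 UMIs. The Spry2 ratio in surface ectoderm turned from -0.66 to 0.0172 with 1 more marker UMI. Elsewhere, 73 of 77 ratios over all cells and 155 of 176 within classes stayed within their counting intervals. The causes were not tested. No paired analysis was possible because there is 1 library per genotype. Ligands had under 20 UMIs in most classes, which limits what could be detected, and a replicate could not be left out.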
